A study of Mus musculus with 2 samples.

Results

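Cadherins are cell surface proteins that hold neighbouring cells together in the presence of calcium, and protocadherins are their most numerous relatives. All genes annotated as protein-coding whose symbol is Cdh or Pcdh followed by a number, or by the letters and number of a clustered protocadherin, were taken as members. This gave 92 genes of the 43346 in the deposited tables, 21474 of which code for protein. The genes number 23 cadherins and 69 protocadherins. They carry 91 distinct symbols, because Pcdha11 is the symbol of 2 gene identifiers. Pcdhgb8, annotated as a polymorphic pseudogene, was outside the rule and had levels of 0.68 TPM (replicate 1) and 0.91 TPM (replicate 2).

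The RNA came from whole lung of healthy B6NCrl mouse embryos at embryonic day 16.5, with no treatment or genetic change named in the labels. Both samples belong to this 1 group and are labelled biological replicates 1 and 2. Each was pooled from male and female embryos, 41 of them for replicate 2 and an unstated number for replicate 1, and 10 ng of RNA longer than 200 nt was used per library. The libraries drew 38852395 and 27145337 expected counts, estimated reads per gene summed over genes and spike-ins. Levels are in TPM, a share of each library's transcripts that is divided by transcript length and so allows genes to be set side by side. With n = 2 and no second group, no test between conditions was possible, and each value below is given for both libraries or as mean ± SD (n = 2). In a whole tissue, fewer cells of a type and less RNA per cell cannot be told apart.

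A classical cadherin binds its like on the next cell through extracellular repeats, and its short cytoplasmic tail is tied to actin by catenins. Type I members such as E-cadherin (Cdh1) make the firm junctions of epithelia, and type II members such as VE-cadherin (Cdh5) and cadherin-11 (Cdh11) are typical of vessels and mesenchyme. In the lung, epithelial tubes held by E-cadherin branch into a mesenchyme threaded with vessels. Non-clustered protocadherins, split by their cytoplasmic motifs into delta-1 and delta-2 genes, adhere more weakly and also signal. The clustered protocadherins, best known for the recognition of self by neurons, lie in alpha, beta and gamma arrays. In the alpha and gamma arrays a large variable exon is spliced to a set of constant exons that all members of the array use.

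The delta-2 genes are a group in which one family spans high and very low levels, so their upstream sequences are shown first. RefSeq promoter windows (GRCm38.p6) were matched for 22 members, none of them a clustered protocadherin. Of the members with a mean of at least 10 TPM, only Pcdh18 and Pcdh17 had a window. The 22 members include all 5 delta-2 genes. For these 5 the 120 bases just before the annotated start are printed 5′ to 3′ on the strand of the gene. Capitals mark ATTGGNTGG, a stretch that holds the CCAAT box read from the other strand and that was picked out after the windows had been read.
Pcdh18 (chr3:49757317-49757436, minus strand): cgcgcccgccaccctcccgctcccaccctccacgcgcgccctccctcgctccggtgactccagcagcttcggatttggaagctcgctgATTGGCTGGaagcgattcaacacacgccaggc
Pcdh17 (chr14:84443443-84443562, plus strand): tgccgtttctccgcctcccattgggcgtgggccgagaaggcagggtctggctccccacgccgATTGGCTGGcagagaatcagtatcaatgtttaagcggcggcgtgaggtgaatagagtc
Pcdh19 (chrX:133688994-133689113, minus strand): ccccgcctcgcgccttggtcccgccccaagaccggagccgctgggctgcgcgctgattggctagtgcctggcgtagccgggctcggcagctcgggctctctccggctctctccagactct
Pcdh10 (chr3:45378278-45378397, plus strand): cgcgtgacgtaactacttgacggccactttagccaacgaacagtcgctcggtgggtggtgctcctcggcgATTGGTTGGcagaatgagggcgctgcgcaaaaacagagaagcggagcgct
Pcdh8 (chr14:79771313-79771432, minus strand): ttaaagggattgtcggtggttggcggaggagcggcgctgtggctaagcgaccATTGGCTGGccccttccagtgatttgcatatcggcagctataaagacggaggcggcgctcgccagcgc
The stretch was found on either strand within 250 bases before the start in Pcdh18, Pcdh17, Pcdh10 and Pcdh8, at 23, 49, 41 and 59 bases from the start. It was not found in the Pcdh19 window, which holds attggctag. Among all 22 members with a window it was found in 5 (22.7%), the fifth being the type II gene Cdh18. The share among the 16317 coding genes with a window was 2.16%. Because the stretch was picked out from the members' own windows, their share was raised by that choice. The difference between the shares is therefore no measure of enrichment. The shorter CCAAT, searched on both strands and overlapping the longer stretch, was found in 63.6% of these 22 members' windows and 36.0% of all windows. Every match to the longer stretch holds the shorter one, so the same choice raised this share too. This difference is therefore no measure of enrichment either. The other short stretches searched had lower shares among the members' windows than among all windows. CG pairs numbered 23 in the window of Pcdh18, 21 in Pcdh17, 16 in Pcdh19, 22 in Pcdh10 and 11 in Pcdh8. The median was 10 in all windows and 9 in those of the 22 members. At least 10 CG pairs were found in 50% of the members' windows and 52.6% of all windows. Pcdh18, with 47.63 and 39.20 TPM, and Pcdh10, with 0.17 and 0.14 TPM, have near equal numbers of CG pairs. Each has a match to ATTGGNTGG, with C at the open position in Pcdh18 and T in Pcdh10. How either feature bears on the levels was not tested. A match is a description of letters and was not tested as a binding site.

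The family summed to 782 TPM in replicate 1 and 742 TPM in replicate 2, which is 0.0782% and 0.0742% of all TPM. At 1 TPM or more in both libraries, 50 of the 92 members were detected (54.3%), beside 61.5% of all protein-coding genes. Of the members, 40 lay below 1 TPM in both libraries. A mean of at least 10 TPM was reached by 12 (13.0%, against 41.2% of coding genes). Expression was concentrated in few genes, since the 2 highest members held 38.4 ± 0.0700% of the family's TPM, the 5 highest 62.1 ± 0.00472% and the 10 highest 80.7 ± 0.0561%. By class, type II cadherins held 31.3 ± 0.301%, type I cadherins 23.3 ± 0.220% and the gamma protocadherins 21.3 ± 0.420%. The remaining classes held 8.11% (delta-2), 6.26% (other cadherins), 3.48% (delta-1), 2.98% (other non-clustered protocadherins), 2.80% (beta) and 0.492% (alpha).

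**Figure D1:**
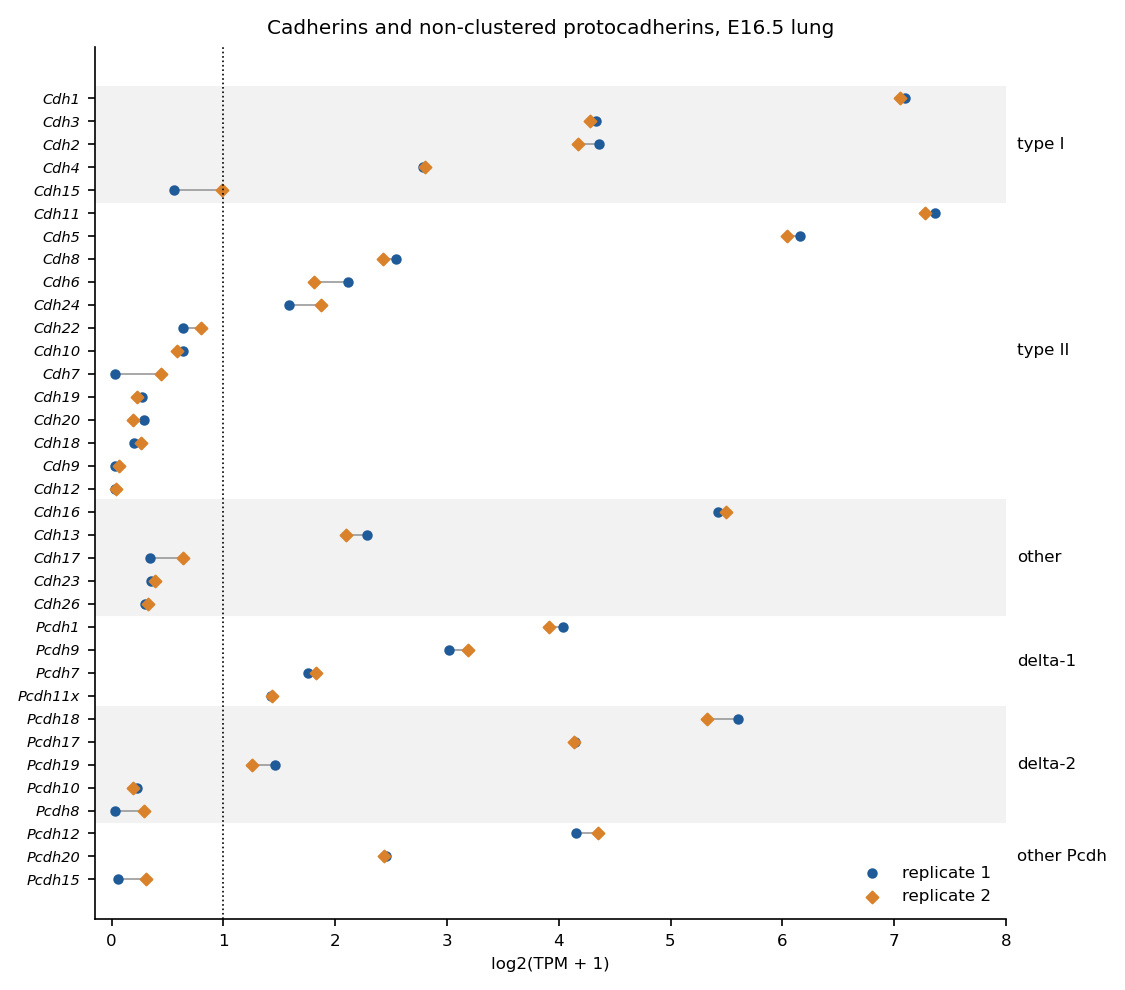
Levels of the 23 cadherins and 12 non-clustered protocadherins as log2(TPM + 1), 1 point per library, ordered by level within each class. The dotted line marks 1 TPM, and Cdh11 and Cdh1 stand highest at 164 and 136 TPM in replicate 1, while 8 of 13 type II genes lie left of the line in both libraries.

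The type I genes were led by Cdh1, the adhesion molecule of epithelial junctions, at 135.65 and 131.42 TPM in the first and the other library. Cdh1 lies on chromosome 8 (106603351 to 106670246, plus strand, build mm10) and drew 15287 and 10523 expected counts. Cdh3, which encodes the P-cadherin of basal epithelial layers, lies upstream of it with 46.1 kb between the genes and was at 19.14 and 18.47 TPM. Cdh2, the N-cadherin of mesenchyme, muscle, mesothelium and nerve, was at 19.57 and 16.98 TPM, and the libraries' values for Cdh2 and Cdh3 overlap. Cdh1 exceeded Cdh3 by 2.83 ± 0.00403 and Cdh2 by 2.87 ± 0.11 on the log2 scale. The 6 cardiac muscle markers summed to 1222 TPM in replicate 1 and 1022 TPM in replicate 2, and the 4 mesothelial markers to 69.6 and 91.9 TPM. All 10 were detected in both libraries. The 5 mesenchymal markers summed to 2943 and 2753 TPM. The part of any of these tissues in the Cdh2 level was not tested. Cdh4, the R-cadherin, was lower at 5.89 and 5.97 TPM.

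The last type I gene, the M-cadherin Cdh15 of muscle precursors, had 0.47 TPM in replicate 1 and 0.98 TPM in replicate 2. These values rest on 34 and 50 expected counts. Their exact binomial intervals, 0.328 to 0.663 and 0.730 to 1.30 TPM, cover counting error only and do not overlap. The intervals of some other members did not overlap either, among them those of Cdh7, Pcdh8, Pcdh15 and the high Cdh11. The gap therefore does not set Cdh15 apart. The 8 skeletal muscle markers summed to 155.63 TPM in replicate 1 and 442.35 TPM in replicate 2, and all 6 with a mean of at least 1 TPM were higher in replicate 2. The other 2, Myod1 and the satellite cell factor Pax7, were at 0.55 and 0.03 TPM in replicate 1 and at 0.89 and 0.01 TPM in replicate 2. The log2 ratio of Cdh15 to the muscle regulator Myog was -2.38 and -2.54 in the libraries (mean -2.46 ± 0.11). The part of muscle in the Cdh15 values was not tested.

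Cdh11 was the highest member of the family. Cdh11, named osteoblast cadherin and widely used by mesenchymal cells, was at 164.03 and 153.72 TPM from its single annotated transcript on chromosome 8 (102632095 to 102785642, minus strand). Both libraries placed Cdh11 above Cdh1 without overlap, and the log2 ratio was 0.25 ± 0.03. Its rank among coding genes was 901 and that of Cdh1 was 1106. Cdh5, the adhesion molecule of endothelial junctions, was at 70.26 and 65.01 TPM (chromosome 8, 104101625 to 104144511, plus strand). The log2 ratio of Cdh5 to Cdh1 was -0.98 ± 0.05 and that to Cdh11 was -1.23 ± 0.01.

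The other 11 type II genes were far lower. Cdh8 was at 4.82 and 4.38 TPM, the kidney cadherin Cdh6 at 3.32 and 2.51 TPM, and Cdh24 at 2.00 and 2.67 TPM. The other 8, which include the neural genes Cdh7, Cdh9, Cdh10, Cdh12, Cdh18 and Cdh20, lay between 0.02 and 0.74 TPM in the libraries. The Schwann cell cadherin Cdh19 was at 0.21 and 0.17 TPM. Of the 5 Schwann cell markers, 2 were detected in both libraries, and their sum was 27.9 TPM in replicate 1 and 26.6 TPM in replicate 2, most of it Erbb3. Sox10 was at 0.69 and 0.56 TPM. The 5 neuronal markers summed to 21.7 and 28.8 TPM.

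Markers of epithelium, endothelium and mesenchyme were measured beside these genes. The 5 epithelial markers summed to 1086 and 1125 TPM, the 5 endothelial markers to 624 and 607 TPM, and the 5 mesenchymal markers to 2943 and 2753 TPM. All 15 were detected in both libraries, among them the lung lineage factor Nkx2-1 at 77.0 and 62.6 TPM. The log2 ratio of Cdh1 to the epithelial adhesion molecule Epcam was -0.90 ± 0.03 per length. For Cdh5 and Pecam1, another endothelial junction molecule, it was -0.85 ± 0.000973, and for Cdh11 and the collagen gene Col1a1 it was -2.77 ± 0.13. Which cells carried each transcript was not measured.

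The cadherins outside both classical types were led by Cdh16, a cadherin named for the kidney, at 42.02 and 44.26 TPM. Cdh16 lies on chromosome 8 (104601911 to 104624396, minus strand), 457 kb beyond Cdh5, and its log2 ratio to Cdh1 was -1.63 ± 0.09. Cdh13, the T-cadherin, which is anchored by lipid and lacks a cytoplasmic tail, was at 3.88 and 3.28 TPM. Cdh23, a tip link protein of hair cells, and Cdh26 were below 0.4 TPM in both libraries. By posterior mean TPM they were at 0.67 and 0.80 (Cdh23) and at 0.43 and 0.47 (Cdh26). Cdh17, a cadherin named for liver and intestine, was at 0.27 and 0.56 TPM from 24 and 35 expected counts. Its exact binomial intervals, 0.175 to 0.406 and 0.391 to 0.781 TPM, overlap narrowly. The 5 liver markers summed to 49.6 TPM in replicate 1 and 417 TPM in replicate 2, each higher in replicate 2, and their part in the Cdh17 value was not tested.

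Most cadherins at high levels lie on chromosome 8, which carries 8 of the 23 cadherins, in the order Cdh8, Cdh11, Cdh5, Cdh16, Cdh3, Cdh1, Cdh13 and Cdh15. Of these, 7 were detected in both libraries and 5 had a mean of at least 10 TPM, and together they summed to 440.27 and 421.52 TPM of the 473.59 and 452.96 TPM of all cadherins. Chromosome 15 carries 5 type II genes, of which 1, Cdh6, was detected. Chromosome 1 carries Cdh20, Cdh7 and Cdh19, of which 0 were detected.

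Among the delta-1 protocadherins all 4 genes were detected. Pcdh1, which is expressed in airway epithelium and is known as a susceptibility gene for airway hyperreactivity, was at 15.40 and 14.07 TPM, with a log2 ratio to Cdh1 of -3.18 ± 0.06. Pcdh9 was at 7.11 and 8.10 TPM, Pcdh7 at 2.39 and 2.55 TPM and Pcdh11x, on the X chromosome, at 1.69 and 1.71 TPM. For each of these 4 genes the libraries lay within 0.17 of each other on the log2(TPM + 1) scale.

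Among the delta-2 genes, whose upstream windows are printed above, the levels ran from Pcdh18 at 47.63 and 39.20 TPM to Pcdh8 at 0.02 and 0.22 TPM. Pcdh18 lies on chromosome 3 (49743296 to 49757325, minus strand), and its lower library was replicate 2. Pcdh17 was at 16.67 and 16.56 TPM, the smallest difference between libraries among the 12 members above 10 TPM in mean. Pcdh19, an X-linked gene known for its role in epilepsy, was at 1.76 and 1.39 TPM, and Pcdh18 exceeded it by 4.79 ± 0.04 on the log2 scale. Pcdh10 was at 0.17 and 0.14 TPM. Pcdh10 and Pcdh18 are the pair of members on chromosome 3.

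Of the other 3 non-clustered genes, Pcdh12, an endothelial protocadherin, was at 16.80 and 19.39 TPM, with a log2 ratio to Cdh5 of -1.90 ± 0.23. Pcdh20 was at 4.49 and 4.43 TPM. Pcdh15, a tip link partner of Cdh23, was at 0.04 and 0.24 TPM, although the second deposited estimate, the posterior mean TPM, gave 0.65 and 1.03 for Pcdh15. Pcdh12 was one of 3 members above 10 TPM that were higher in replicate 2, beside Cdh16 and Pcdhgc4.

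The 12 members with a mean of at least 10 TPM ran in the order Cdh11, Cdh1, Cdh5, Pcdhgc3, Pcdhgc4, Pcdh18, Cdh16, Cdh3, Cdh2, Pcdh12, Pcdh17 and Pcdh1. The place of Pcdhgc4 rests on a transcript that shares most of its bases with other members, as given below. The ranges of the libraries overlapped between Cdh5 and Pcdhgc3, between Pcdhgc4 and Pcdh18, between Pcdh18 and Cdh16, between Cdh3 and Cdh2, and between Cdh2 and Pcdh12. The other 6 neighbouring pairs did not overlap, although 2 libraries a gene give only a rough measure of spread.

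The clustered protocadherins number 57, all on chromosome 18, and their arrays differed widely in level. The 14 alpha genes summed to 3.95 TPM in replicate 1 and 3.55 TPM in replicate 2, the 22 beta genes to 21.16 and 21.53 TPM, and the 21 gamma genes to 169.15 and 156.12 TPM. Of these, 1 alpha, 10 beta and 19 gamma genes were detected in both libraries. The gamma sum exceeded the alpha sum by 5.44 ± 0.03 and the beta sum by 2.93 ± 0.10 on the log2 scale.

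**Figure D2:**
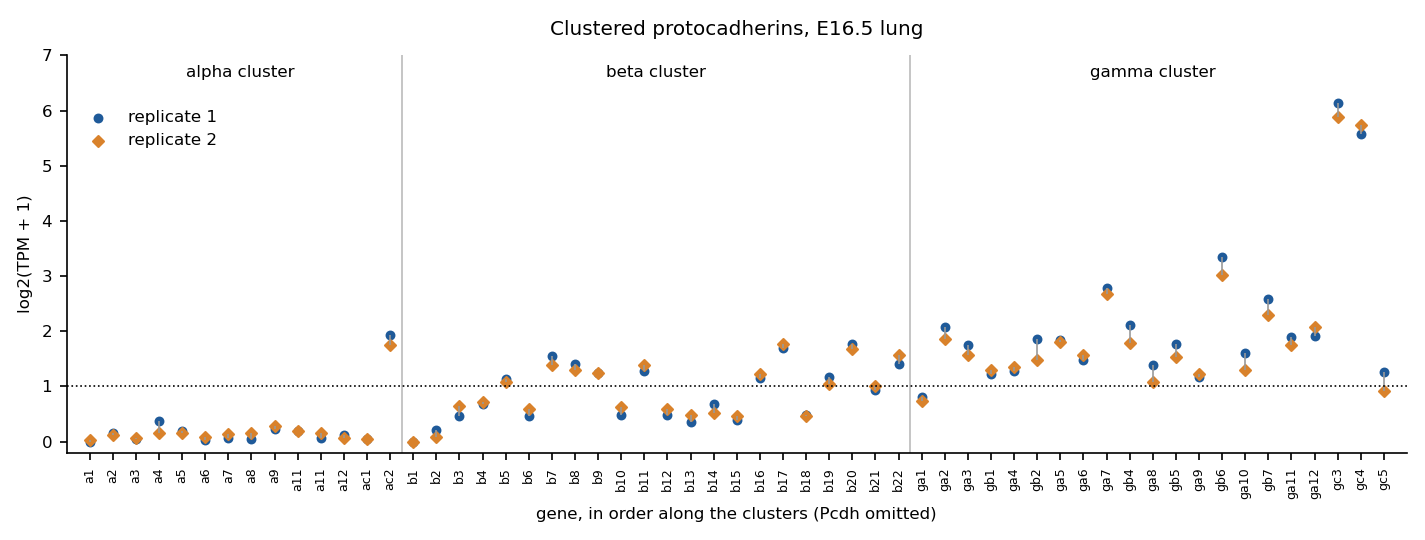
Levels of the 57 clustered protocadherins as log2(TPM + 1), 1 point per library, in their order along the alpha, beta and gamma arrays. The dotted line marks 1 TPM. Pcdhac2, the last alpha gene, is the 1 alpha gene above the line in both libraries, and Pcdhgc3 and Pcdhgc4 near the end of the gamma array stand apart at 69.0 and 46.4 TPM in replicate 1.

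In the alpha array the 12 genes named Pcdha, which neurons choose from at random, lay between 0 and 0.29 TPM in replicate 1 and between 0.02 and 0.21 TPM in replicate 2. Their sum was 1.09 and 1.16 TPM. The C-type gene Pcdhac2, at the end of the array, was at 2.83 and 2.36 TPM and made up 71.6% and 66.5% of the alpha sum. Next was Pcdha4 at 0.29 and 0.12 TPM. The other C-type gene, Pcdhac1, was at 0.03 TPM in both libraries.

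The beta genes, single-exon genes without constant exons, all had means below 2.5 TPM. Their highest members were Pcdhb17 at 2.23 and 2.41 TPM and Pcdhb20 at 2.40 and 2.20 TPM, and 11 of 22 were below 1 TPM in both libraries. Pcdhb1 was listed at 0 with no read in either library, and a limit of 3 counts allows up to 0.0461 TPM in replicate 1 and 0.0650 TPM in replicate 2.

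In the gamma array 11 of 12 genes of subgroup A, all 6 of subgroup B and 2 of 3 C-type genes were detected. Pcdhgc3 was at 69.01 and 58.11 TPM, and Pcdhgc4 at 46.42 and 52.42 TPM. The C-type genes made up 69.1% of the gamma sum in replicate 1 and 71.4% in replicate 2. The highest gene of subgroup B was Pcdhgb6 at 9.14 and 7.11 TPM, and of subgroup A Pcdhga7 at 5.87 and 5.40 TPM. Pcdhgc5, the last gene of the array, was at 1.41 and 0.88 TPM. The libraries gave Pcdhgc3 over Pcdhgc4 by 0.57 and by 0.15 on the log2 scale, and this was the 1 of 25 gene pairs whose mean, 0.36 ± 0.30, did not exceed 2 SD. From expected counts not divided by length the mean log2 ratio of Pcdhgc3 to Pcdhgc4 was 1.30, and all 25 pairs exceeded 2 SD.

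Shared exons bear on these gamma values. In the annotation 0 of the 35 members outside the clusters share exonic bases with another member. All 14 alpha genes do, with a median of 53.4% of a gene's exonic bases, and all 21 gamma genes, with a median of 44.6%. Of the beta genes 2 do, Pcdhb21 and Pcdhb22. A read that falls in the constant exons fits every gene of the array and was divided among them by the authors' estimator. A further 5 genes on the same strand overlap exons of all 21 gamma genes, Pcdhgb8, Gm38182, Gm37013, Gm37388 and Gm42416. Gm38182 was at 0.23 and 0.26 TPM, and the last 3 were listed at 0 in both libraries.

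The case is sharpest for Pcdhgc4. The transcript Pcdhgc4-203 held 86.7% of the gene's TPM in replicate 1 and 86.0% in replicate 2, at 40.24 and 45.08 TPM. It is 2272 bases long, and 2119 of them (93.3%) are shared with other gamma genes, which leaves 153 bases of its own. The longer coding transcript Pcdhgc4-201 was at 1.32 and 1.42 TPM, and the retained-intron transcript Pcdhgc4-202 at 4.85 and 5.92 TPM. Without Pcdhgc4-203 the gamma sum was 128.91 and 111.04 TPM, and the rest of Pcdhgc4 came to 6.17 and 7.34 TPM. The place of Pcdhgc4 among the members with a mean of at least 10 TPM therefore rests on this transcript. So does most of its part in the share of the highest members and in the C-type share. For Pcdhgc3 the full-length transcript Pcdhgc3-201 held 92.1 ± 1.53% of the gene's TPM, and 45.2% of its bases are shared.

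**Figure D3:**
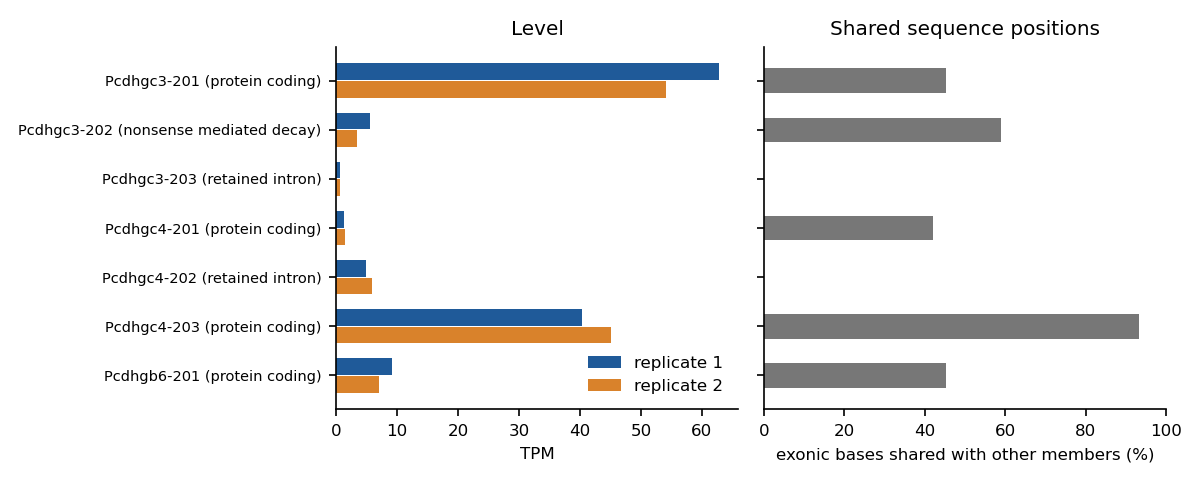
Left, level of each transcript of Pcdhgc3, Pcdhgc4 and Pcdhgb6 in TPM, 1 bar per library. Right, the percentage of the exonic bases of each transcript that other members also use. Pcdhgc4-203 is the only one of the 7 above 90% and carries 40.2 and 45.1 TPM.

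The deposited credibility interval gives the uncertainty of a level within a library, and it holds counting error as well as the division of shared reads. Its width was divided by the posterior mean. Among members with a single transcript and no shared bases this relative width ran from 0.0330 for Cdh11 through 0.0983 for Cdh3 to 2.71 for Pcdhb1. Pcdhb1 had no read, and Cdh9 and Cdh12, with few reads, were at 1.78 and 1.67. The relative width had a median of 0.439 over the 57 clustered genes and 0.362 over the other 35. Among members with a mean of at least 1 TPM, the medians were 0.327 over 31 clustered genes and 0.208 over 20 others. In that set 2 of the 31 clustered genes and 10 of the 20 others had a mean of at least 10 TPM. The width was 0.0356 for Cdh1, 0.0779 for Pcdhgc3 and 0.164 for Pcdhgc4. How much of the difference between clustered and other genes comes from shared exons was not tested. Genes on the opposite strand overlap exons of some members, such as BC037039 over Pcdhgc3 at 6.46 and 4.61 TPM, and the strand setting of the counting was not given in the sources used here.

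All 12 members above 10 TPM in mean had the same leading transcript in both libraries, and 5 of them have a single annotated transcript. Cdh1-201 held 99.6 ± 0.205% of Cdh1, Pcdh1-202 held 85.3 ± 1.46% of Pcdh1 and Pcdh18-201 held 83.3 ± 2.11% of Pcdh18. For Cdh2 the shorter coding transcript Cdh2-202 led, with 59.2% in replicate 1 and 72.3% in replicate 2, while Cdh2-201 held 34.3% and 20.1%. Pcdh12 was the exception to a coding lead. Its retained-intron transcript Pcdh12-204 held 47.2% and 51.9%, and coding transcripts held 27.1% and 20.5% of the Pcdh12 level, so most of that TPM is not from transcripts annotated to code for protein.

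Replicate values could be compared for the 51 members with a mean of at least 1 TPM. The other 41 rest on low values, among them Cdh15 and Cdh17 above, and were left out of the counts that follow. Of the 51, 0 differed 2-fold or more on the log2(TPM + 1) scale, beside 2.67% of all 15493 genes compared and 1.20% of the 13469 that code for protein. With shares this small, a count of 0 among 51 is near the background. The differences, replicate 2 minus replicate 1, ran from -0.38 (Pcdhgb2) to 0.29 (Cdh24). Their SD was 0.167, beside 0.276 for coding genes compared and 0.382 for all genes compared. Among genes with a mean of 1 to 10 TPM the SD was 0.173 for 39 members and 0.373 for coding genes. From 10 to 1000 TPM it was 0.149 for 12 members and 0.199 for coding genes. Levels were not matched within these ranges, and the pseudocount shrinks differences most at low levels. Members were lower in replicate 2 in 33 of 51 cases (64.7%, against 51.6% of coding genes compared), with a median of -0.09. At 1 to 10 TPM the share lower was 61.5% for members and 41.0% for coding genes. From 10 to 1000 TPM it was 75% and 57.1%. The gamma genes were lower in 14 of 20 cases, with a median of -0.21, and they share reads, so these are not 20 separate measurements.

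**Figure D4:**
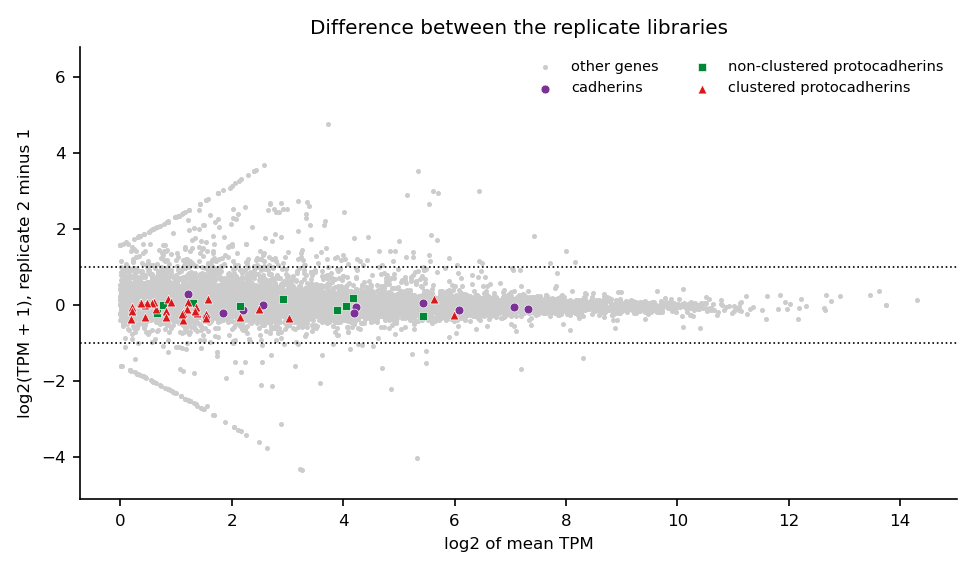
Difference between the libraries, log2(TPM + 1) of replicate 2 minus that of replicate 1, against log2 of the mean TPM, for genes whose mean reached 1 TPM. Dotted lines mark 2-fold. All 51 members compared lie between the lines, and 413 of the 15493 genes lie on or beyond them.

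Of 18 catenins and adherens junction genes, the partners of cadherins at the membrane, 16 were detected in both libraries, with a median of 30.9 ± 0.389 TPM. The background for this list and those that follow is the 61.5% of coding genes detected, whose median was 19.0 TPM. Beta-catenin (Ctnnb1), which binds the cadherin tail and also carries WNT signals, was at 374 and 378 TPM, alpha-catenin (Ctnna1), the link to actin, at 194 TPM in both, and plakoglobin (Jup) at 140 and 138 TPM. Ctnna2, the neural alpha-catenin, was lowest at 0.70 and 0.84 TPM, and Ctnna1 exceeded it by 7.98 ± 0.18 on the log2 scale. Ctnnd1, the p120 catenin that keeps cadherins at the membrane, exceeded its neural relative Ctnnd2 by 2.52 ± 0.09, and Ctnnb1 exceeded Jup by 1.44 ± 0.02.

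Genes that repress Cdh1 or mark the epithelial programme were detected in 10 of 11 cases. The repressors Snai2, Snai1 and Zeb2 were the highest of the list, at 142, 109 and 72.4 TPM in replicate 1 and 116, 101 and 64.4 TPM in replicate 2. Twist1 was lowest, at 0.35 and 0.32 TPM. The log2 ratio of the repressor Zeb1 to Cdh1 was -3.26 ± 0.19. Enzymes that shed cadherins or cut their stubs were detected in 7 of 7 cases, led by the gamma-secretase subunits Psenen at 128 and 127 TPM and Ncstn at 122 TPM in both, and by the sheddase Adam10 at 75.2 and 74.6 TPM. Psen2 was lowest, at 12.3 and 11.2 TPM.

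Regulators of the clustered arrays, where CTCF and cohesin are known to loop an enhancer to the chosen promoter, were detected in 12 of the 12 measured. Smc1a was at 98.96 and 92.21 TPM, Ctcf at 96.3 and 92.6 TPM, Rad21 at 58.1 and 55.1 TPM, and the methyltransferase Dnmt3b was lowest at 10.1 and 9.75 TPM. Of 24 other genes of the cadherin superfamily, which include desmosomal cadherins and Fat genes, 11 were detected in both libraries. The giant cadherin Fat1 was at 19.4 and 19.1 TPM, the calsyntenin Clstn1 at 11.4 and 12.8 TPM, and Cdhr4 at 6.46 and 7.90 TPM. Dsc1, a desmocollin of stratified skin, was listed at 0 in both libraries.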

How the data were processed

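RNA-seq of whole embryonic lung was deposited as a gene table and a transcript table per library, quantified on mm10 with GENCODE M4, as the authors' deposited notes state. The aligner, the quantifier and the strand setting were not given in the sources used here. The expected counts deposited by the authors are estimated reads, divided where a read fits several genes. TPM, by its column name per the file headers, is scaled for effective length and library, and spike-ins are part of its total. The score columns the authors deposited are bounds of a credibility interval, whose level is not stated. The percent values deposited for transcripts are shares of a gene's TPM.

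Symbols and exons came from GENCODE M21 of the same build by gene identifier, which matched 42462 of 43346 rows. Detection meant at least 1 TPM in both libraries. Differences used a pseudocount of 1 TPM and a minimum mean of 1 TPM, and were called at 2-fold. The sign of a log2 ratio was taken to hold past 2 SD. With n = 2 no p-value is given. Exact binomial intervals (95%), from the rounded count of a gene and the total over genes, cover counting error only. Python 3.11.15, NumPy 2.4.6, pandas 2.3.3, SciPy 1.17.1 and matplotlib 3.10.9 were used. For alternatives, expected counts were rounded and scaled by edgeR 4.0.16 (TMM) and DESeq2 1.42.0 in R 4.3.3, and this step was tested on simulated data. Promoter windows came from RefSeq.

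Members, lists and alternatives were chosen with earlier results of these data known. Named were members with a mean of at least 10 TPM, the highest of each class, the 2 highest of each array, members listed at 0, those differing 2-fold, the 3 highest and the lowest of each partner list, and fixed gene pairs. Other members are named to complete their class. The overlapping genes and the promoter stretch were named beyond this rule after their values were seen. Protein sequences were not used here.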

Additional observations from a re-analysis of the deposited data

How the results depend on the processing

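No paired analysis was possible because the 2 libraries form a single group. Leaving out the spike-ins raised the summed family level from 762 to 803 TPM, by construction of the unit. Detection at 2 TPM in place of 1 TPM left 31 of 92 members in place of 50. With no minimum level and a pseudocount of 0.1, a setting chosen after seeing the data, 3 members (Cdh7, Pcdh15 and Pcdh8) differed 2-fold, beside 7.29% of all genes, and each was below 0.4 TPM in both libraries. Under the 7 other settings of that comparison the count was 0. The SD of the members' differences was 0.167 in the main setting, 0.227 with a pseudocount of 0.1 and 0.236 with TMM-scaled counts. The SD of coding genes was not computed under these alternatives. The median relative credibility width of the clustered genes was 0.327 among those with a mean of at least 1 TPM, against 0.439 for all. The log2 ratio of Cdh1 to Epcam turned from -0.90 to 0.25 when expected counts were not divided by length, because the transcripts differ in length. The same setting moved Pcdhgc3 to Pcdhgc4 from 0.36 to 1.30. In all, 20 of the 25 ratios moved by more than their SD under it, 1 reversed and 4 stayed within their SD. With the posterior mean TPM, 11 of the levels, sums, ratios and the median difference moved by more than their SD, and 36 did not. The posterior mean TPM was over 2 times the TPM in both libraries for 5 members, none with a mean of at least 1 TPM.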
